A study of Mus musculus with 6 samples.

Results

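The endoplasmic reticulum folding and degradation machinery was followed through 37 genes in mouse liver: the stress sensors, the chaperones and isomerases that fold secretory proteins, the channel through which these proteins enter, and the system that removes those that fail to fold. A gene was taken from the array's probe sets with exactly 1 gene symbol and, where it had several, from the brightest of them by mean level, which gave a level for all 37 of 37 genes among 18193 genes measured. Levels were read on Affymetrix arrays from total RNA of whole liver in male mice of 10 weeks, with 1 array per liver. The 3 livers called KO carry the genotype L Pex5 -/- and come from animals titled L-Pex5 Knockout, and the 3 livers called WT carry the genotype WT. Both groups are given the same mixed background, Alb-Cre Tac:[Sw]fBR. Alb-Cre expresses the Cre recombinase from the promoter of albumin, a gene of hepatocytes, so the other cells of a liver piece need not carry the deletion. Pex5 is the receptor that brings newly made enzymes into peroxisomes. The series title concerns the carbohydrate metabolism of hepatocytes that lack functional peroxisomes, and the comparison of KO with WT livers asks which transcripts differ.

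The endoplasmic reticulum is where a hepatocyte folds the plasma proteins that it secretes. Chaperones of the HSP70 and HSP90 families hold unfolded chains, protein disulfide isomerases form and correct disulfide bonds, and calreticulin and calnexin retain glycoproteins that are not yet folded. Unfolded protein is sensed by the membrane proteins ATF6, IRE1 (the product of Ern1) and PERK (the product of Eif2ak3), which signal through cleaved ATF6, spliced XBP1 and the translation factor eIF2alpha to raise chaperone and degradation genes and to slow protein synthesis. Proteins that do not fold are passed back to the cytosol through derlins and the SEL1L and SYVN1 ubiquitin ligase complex.

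Many genes of this machinery share a promoter element, the ER stress response element (ERSE), through which ATF6 acts together with NF-Y. It was searched, as CCAAT and CCACG with 9 bases of any kind between them, on both strands of windows that run from 250 bases before to 50 bases after the annotated start, taken from RefSeq on GRCm38.p6 and matched by symbol for 31 of the 37 genes. The match was found in 9 of these 31 genes (29.0%), against 37 of all 27025 genes with a window (0.137%). The matches are shown because they mark which members carry the same letters, with the matched letters in capitals, 15 bases on either side in lower case, and each sequence written on the strand that reads CCAAT first:
Hspa5, chr2:34772010-34772058, plus strand: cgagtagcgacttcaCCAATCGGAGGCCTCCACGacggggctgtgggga
Hsp90b1, match farther from the start, chr10:86705623-86705671, minus strand: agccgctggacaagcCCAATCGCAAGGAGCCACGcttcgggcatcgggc
Hsp90b1, match nearer the start, chr10:86705518-86705566, plus strand: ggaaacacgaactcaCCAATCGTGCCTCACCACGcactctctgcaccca
Creld2, chr15:88819505-88819553, minus strand: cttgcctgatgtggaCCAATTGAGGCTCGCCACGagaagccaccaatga
Calr, chr8:84847060-84847108, plus strand: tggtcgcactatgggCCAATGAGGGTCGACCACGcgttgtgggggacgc
Canx, chr11:50325785-50325833, minus strand: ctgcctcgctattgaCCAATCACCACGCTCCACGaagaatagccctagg
Pdia6, chr12:17266476-17266524, plus strand: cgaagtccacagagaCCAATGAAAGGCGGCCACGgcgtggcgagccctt
Dnajc3, chr14:118937812-118937860, plus strand: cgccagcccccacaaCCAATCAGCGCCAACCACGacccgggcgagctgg
Syvn1, chr19:6046517-6046565, plus strand: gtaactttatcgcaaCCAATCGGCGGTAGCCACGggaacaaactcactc
Derl3, chr10:75893227-75893275, minus strand: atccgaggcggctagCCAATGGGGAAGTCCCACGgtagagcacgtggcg

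The second form of the element, ERSE-II, was searched as ATTGG and CCACG with 1 base of any kind between them, on both strands, and was found in 2 of the 31 genes, Dnajb11 and Herpud1 (6.45%), against 12 of 27025 genes (0.0444%). The matched letters are again in capitals:
Dnajb11, chr16:22857837-22857877, plus strand: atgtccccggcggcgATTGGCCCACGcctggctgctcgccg
Herpud1, chr8:94386362-94386402, plus strand: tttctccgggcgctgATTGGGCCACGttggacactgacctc
The XBP1-type element TGACGTGG, searched on both strands, was found in 1 of the 31 genes, Txndc5, and in 0.714% of all genes. A match is a run of letters and no evidence of binding.

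The windows of 3 genes without an exact ERSE are shown whole, because Sdf2l1 had the largest fall of the members and Eif2ak3 and Ern1 were higher in KO livers. Capitals mark the separate blocks CCAAT and CCACG on either strand, which occur in 37.4% and 32.8% of all windows:
Sdf2l1, chr16:17132334-17132633, minus strand: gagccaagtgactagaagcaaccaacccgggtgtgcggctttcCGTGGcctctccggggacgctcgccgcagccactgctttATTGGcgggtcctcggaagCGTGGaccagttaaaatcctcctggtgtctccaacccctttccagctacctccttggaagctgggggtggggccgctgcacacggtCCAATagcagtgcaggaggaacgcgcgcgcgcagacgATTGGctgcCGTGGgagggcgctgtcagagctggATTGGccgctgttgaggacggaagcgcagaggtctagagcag
Eif2ak3, chr6:70844265-70844564, plus strand: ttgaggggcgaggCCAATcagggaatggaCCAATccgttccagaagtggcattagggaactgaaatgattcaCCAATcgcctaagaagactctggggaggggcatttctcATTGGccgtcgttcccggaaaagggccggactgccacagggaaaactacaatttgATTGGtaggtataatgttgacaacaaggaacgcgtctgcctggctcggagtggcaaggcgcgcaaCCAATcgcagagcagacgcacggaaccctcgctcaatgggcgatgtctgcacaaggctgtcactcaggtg
Ern1, chr11:106487747-106488046, minus strand: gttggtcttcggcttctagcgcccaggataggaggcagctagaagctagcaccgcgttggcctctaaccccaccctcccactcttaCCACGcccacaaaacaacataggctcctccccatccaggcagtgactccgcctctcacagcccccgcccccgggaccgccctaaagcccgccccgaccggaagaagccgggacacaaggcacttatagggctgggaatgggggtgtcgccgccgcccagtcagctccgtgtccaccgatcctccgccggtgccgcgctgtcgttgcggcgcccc
Sdf2l1 held 4 CCAAT and 3 CCACG blocks at other spacings, Eif2ak3 held 6 CCAAT and 0 CCACG blocks, and Ern1 held 0 CCAAT blocks and 1 CCACG block.

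Levels are log2 values made by the authors with RMA, in which 1 unit is a factor of 2, and differences are KO minus WT. Genes were tested with limma over all 18193 genes and called at a Benjamini-Hochberg adjusted p under 0.05. The label of the targeted gene could not be checked on Pex5, which stood at 9.35, 9.19 and 9.13 in KO livers and 9.14, 8.88 and 9.11 in WT livers (difference 0.18 ± 0.11, SE, adjusted p = 0.262), since it is not stated whether its probe sets cover the deleted part. Arrays within a group correlated at r of at least 0.995 in KO and 0.989 in WT, while the closest KO and WT arrays reached 0.976. The bacterial control transcripts were dimmer on the KO arrays by 0.51, from 9.29 to 9.40 on the 3 KO arrays and from 9.81 to 9.91 on the 3 WT arrays. Centring the arrays on these controls adds 0.51 to every difference and moves the median over all genes from -0.055 to 0.46. Higher and lower thus mean relative to most other genes, and counts or values on the control scale are given beside them. All 37 genes were above the background of 4.90 on every array, a level that 95% of 39 olfactory receptor genes do not exceed.

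In KO livers 14 of 21 chaperone, lectin and isomerase genes were lower and 0 higher, while 3 of 5 sensor and factor genes were higher and 0 lower. Of the 37 genes, 20 were lower and 4 higher, and 13 did not pass. Over all genes 9.75% were called lower and 14.2% higher, and among the 12042 genes with a mean above background, tested on their own, 13% were lower and 21.8% higher. The median difference was -0.47 over the 37 genes and -0.055 over all genes. All 3 KO arrays lay below all 3 WT arrays in 25 of the genes and above them in 4, shares that were 22.6% and 22.1% over all genes. A fall of at least 2-fold was found in 7 of the 37 genes and in 1.8% of all genes. The called falls lay among chaperones, isomerases, translocon and degradation genes, and the called rises were Atf6, Ern1, Eif2ak3 and the degradation gene Derl1. On the control scale 13 of the 37 genes were higher and 9 lower, against 71.3% and 2.25% of all genes. The 9 that were lower there are Sdf2l1, Creld2, Manf, Hyou1, Dnajb11, Pdia3, Pdia4, Pdia5 and Pdia6.

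**Figure D1:**
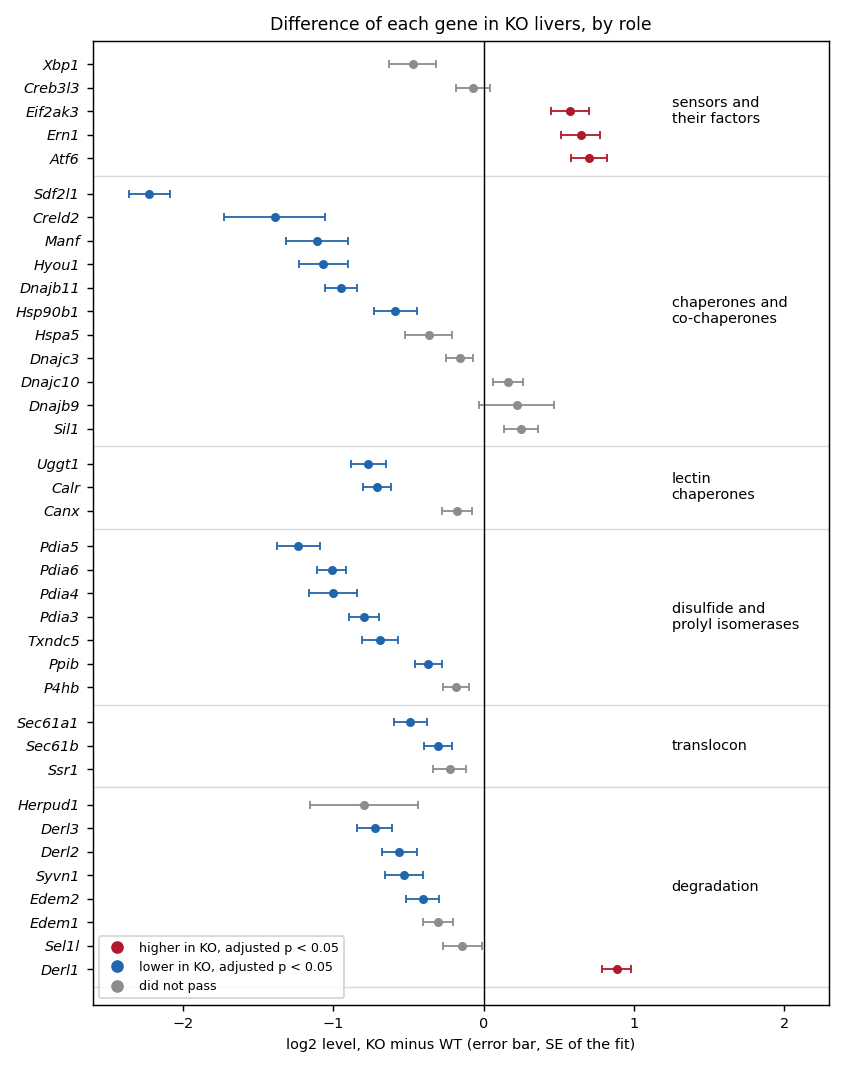
Difference of each of the 37 genes between KO and WT livers on the log2 scale, grouped by role, with the SE of limma's fit as error bar (3 arrays per group). Red and blue points passed an adjusted p under 0.05. Atf6, Ern1, Eif2ak3 and Derl1 lie to the right of 0, and the chaperones and isomerases that passed lie to the left, with Sdf2l1 at -2.22.

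The 3 classical sensors were all higher in KO livers. Atf6, the membrane-bound factor that is cut in the Golgi and moves to the nucleus, stood at 8.58, 8.54 and 8.45 in KO livers, against 7.69, 7.72 and 8.05 in WT livers. The groups did not overlap, and the gene was 1.63-fold higher (0.70 ± 0.12, SE, adjusted p = 0.00462), with all 3 of its probe sets called higher. Ern1, which encodes IRE1, the kinase and nuclease that splices Xbp1 mRNA, stood at 10.13, 10.61 and 10.32 in KO livers, against 9.76, 9.67 and 9.70 in WT livers. Its lowest KO liver was above its highest WT liver, and it was 1.56-fold higher (0.64 ± 0.13, adjusted p = 0.01). Of its 5 probe sets 2 were called higher and 0 lower, with differences from 0.0055 to 0.72. Eif2ak3, which encodes PERK, the kinase of eIF2alpha, stood at 8.08, 7.91 and 7.87 in KO livers, against 7.15, 7.54 and 7.46 in WT livers. It was 1.49-fold higher (0.57 ± 0.12, adjusted p = 0.0137), but only 1 of its 3 probe sets was called and their differences ran from -0.25 to 0.57. Averaging the 3 probe sets ended its call (0.04, adjusted p = 0.808). So did the fits without KO replicate 1 (0.51, adjusted p = 0.0601) and after quantile normalization (0.45, adjusted p = 0.0525).

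The transcription factors beside the sensors were not called. Xbp1, whose product drives chaperone and degradation genes once its mRNA is spliced, stood at 11.56, 11.43 and 11.88 in KO livers, against 11.84, 12.13 and 12.32 in WT livers. KO replicate 3 lay above WT replicate 1, and the difference of -0.47 ± 0.16 had an adjusted p of 0.0654. It was called lower without KO replicate 3 (-0.60, adjusted p = 0.0427), without WT replicate 1 (-0.60, adjusted p = 0.0344) and under 4 other alternatives, and 3 of its 4 probe sets were called lower when all probe sets were fitted. On the control scale it differed by 0.041. Whether its probe sets tell spliced from unspliced mRNA is not given in the sources used here. Creb3l3, a liver factor of the ATF6 kind that is cut in the Golgi and acts on lipid and acute phase genes, stood at 11.07, 10.85 and 11.10 in KO livers and 11.04, 11.21 and 10.97 in WT livers. Its groups overlapped (-0.068 ± 0.11, adjusted p = 0.678), and on the control scale it was higher (0.44, adjusted p = 0.0172).

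Of the 11 chaperones and co-chaperones, 6 were lower in KO livers and 0 higher. The largest fall was that of Sdf2l1, a stress-inducible partner of ER HSP40 proteins, at 7.59, 7.87 and 7.85 in KO livers, against 9.99, 9.79 and 10.21 in WT livers. The groups were separated by more than their own ranges, and the gene was 4.66-fold lower (-2.22 ± 0.13, SE, adjusted p = 3.75e-05). Creld2, a stress-inducible ER protein with disulfide isomerase activity, stood at 8.05, 8.37 and 8.28 in KO livers, against 9.11, 9.23 and 10.52 in WT livers. It was 2.62-fold lower (-1.39 ± 0.34, adjusted p = 0.0212), and WT replicate 3 stood more than 1 unit above the other WT livers. Without that array the difference was -0.94 (adjusted p = 0.00264), and without KO replicate 1, 2 or 3 it was -1.30, -1.46 and -1.41 and did not pass (adjusted p = 0.0767, 0.0604 and 0.0576). Manf, a secreted ER protein that binds the HSP70 chaperone, stood at 10.45, 10.50 and 10.62 in KO livers, against 11.32, 11.42 and 12.15 in WT livers. It was 2.15-fold lower (-1.11 ± 0.21, adjusted p = 0.00719), again with WT replicate 3 the highest, and the difference without that array was -0.85 (adjusted p = 0.00177).

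The HSP70 chaperone itself and its partners were uneven. Hspa5, which encodes BiP, the HSP70 chaperone of the reticulum, stood at 12.38, 12.48 and 12.48 in KO livers, against 12.55, 12.73 and 13.16 in WT livers. Every KO liver was below every WT liver, but the difference of -0.37 ± 0.15 (1.29-fold lower) did not pass (adjusted p = 0.121). A fit without WT replicate 1 called it lower (-0.50, adjusted p = 0.0478), while it was -0.19 without WT replicate 3 (adjusted p = 0.216) and 0.15 on the control scale. Hyou1, an HSP70-like exchange factor of BiP, stood at 9.50, 9.58 and 9.56 in KO livers, against 10.52, 10.33 and 10.99 in WT livers, which is 2.09-fold lower (-1.06 ± 0.16, adjusted p = 0.00299). The fall was found in all 3 of its probe sets. Dnajb11, an HSP40 co-chaperone of BiP, was 1.93-fold lower (-0.95 ± 0.11, adjusted p = 0.000803), at 9.17, 9.26 and 9.24 in KO livers and 10.12, 10.03 and 10.36 in WT livers. Hsp90b1, the HSP90 of the reticulum, was 1.5-fold lower (-0.59 ± 0.14, adjusted p = 0.0215), at 11.57, 11.79 and 11.90 in KO livers and 12.19, 12.22 and 12.61 in WT livers. It did not pass without KO replicate 1 (-0.50, adjusted p = 0.0834) or KO replicate 2 (-0.60, adjusted p = 0.066), and its difference on the control scale was -0.074 (adjusted p = 0.648).

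The other co-chaperones did not pass. Dnajc3, an HSP40 protein that also inhibits eIF2alpha kinases, differed by -0.16 ± 0.09 in its brightest probe set (adjusted p = 0.234), while 4 of its 5 probe sets were called lower and the mean of the probe sets passed (-0.53, adjusted p = 0.00629). Sil1, an exchange factor of BiP, and Dnajc10, an HSP40 protein with reductase activity, differed by 0.25 and 0.16 (adjusted p = 0.14 and 0.269). Dnajb9, an HSP40 protein that holds back IRE1, stood at 11.27, 10.97 and 11.29 in KO livers, against 10.33, 11.32 and 11.22 in WT livers. WT replicate 1 stood apart from the other WT livers, and without it the difference of 0.22 ± 0.25 (adjusted p = 0.54) was -0.093. On the control scale all 4 of these genes were called higher, as were 71.3% of all genes.

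**Figure D2:**
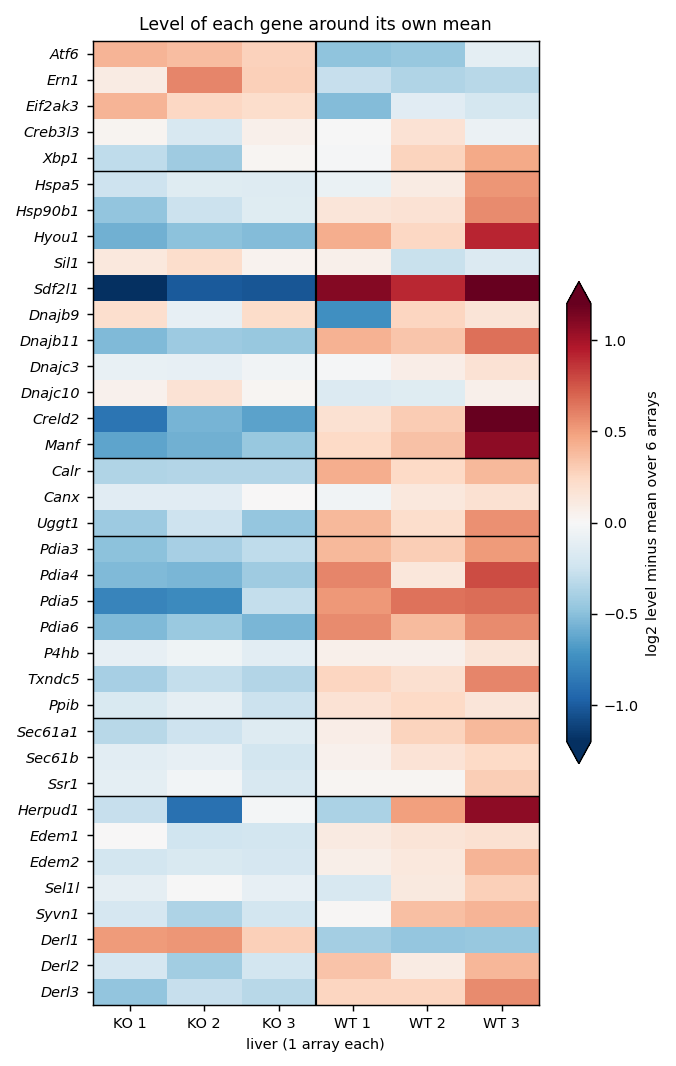
Log2 level of each of the 37 genes in each liver minus the mean of that gene over the 6 arrays, with KO livers left of the vertical line and horizontal lines between the roles. The colour scale ends at 1.2 in either direction, which Sdf2l1 and Creld2 pass. Most chaperones and isomerases are blue in the KO livers and red in the WT livers, WT replicate 3 is the highest WT liver in 29 of the 37 genes, and Atf6, Ern1, Eif2ak3 and Derl1 run the other way.

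Of the lectin chaperones, which bind sugar-bearing chains, 2 of 3 were lower. Calr, calreticulin, stood at 12.15, 12.15 and 12.16 in KO livers, against 12.94, 12.74 and 12.90 in WT livers, which is 1.63-fold lower (-0.71 ± 0.09, SE, adjusted p = 0.0014). Its KO livers were almost identical and its 3 probe sets all fell. Uggt1, which marks glycoproteins that are not yet folded for another round, was 1.70-fold lower (-0.77 ± 0.12, adjusted p = 0.00301), with 2 of 3 probe sets called lower and differences from -1.02 to 0.095. Canx, calnexin, differed by -0.18 ± 0.10 (adjusted p = 0.227). The mean of its probe sets passed as lower (-0.30, adjusted p = 0.0488), while the brightest one passed as higher on the control scale (0.34, adjusted p = 0.0293). On that scale Calr and Uggt1 differed by -0.20 and -0.25 and did not pass (adjusted p = 0.0914 and 0.0581).

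Among the isomerases 6 of 7 were lower and 0 higher. Pdia5 and Pdia6, protein disulfide isomerases, fell 2.35-fold and 2.02-fold. Pdia5 stood at 8.88, 8.91 and 9.39 in KO livers, against 10.20, 10.33 and 10.35 in WT livers (-1.23 ± 0.15, SE, adjusted p = 0.000951). Pdia6 stood at 10.10, 10.18 and 10.08 in KO livers, against 11.19, 11.01 and 11.19 in WT livers (-1.01 ± 0.09, adjusted p = 0.00031). In both genes the gap between the groups was wider than the range within either group. Pdia4 was lower to a like degree, at 9.59, 9.57 and 9.69 in KO livers and 10.70, 10.26 and 10.91 in WT livers (2.01-fold, adjusted p = 0.00356). A dimmer probe set for it had a difference of -0.23 and no call. Pdia3, the isomerase that works with calnexin and calreticulin, was 1.74-fold lower (-0.80 ± 0.10, adjusted p = 0.00128), with both probe sets at -0.80. Txndc5, a further thioredoxin-type isomerase, was 1.61-fold lower (-0.69 ± 0.12, adjusted p = 0.00533). Ppib, cyclophilin B, a prolyl isomerase, was 1.29-fold lower (-0.37 ± 0.09, adjusted p = 0.0203) and lost its call without KO replicate 1, KO replicate 3 or WT replicate 2 (-0.37, -0.33 and -0.34, adjusted p = 0.0745, 0.0716 and 0.0596). P4hb, which encodes the founding protein disulfide isomerase, was the member that did not pass. It stood at 12.78, 12.82 and 12.75 in KO livers and 12.94, 12.93 and 13.03 in WT livers (-0.18 ± 0.08, adjusted p = 0.151), without overlap. On the control scale P4hb was higher (0.33, adjusted p = 0.0117), and Txndc5 and Ppib differed by -0.18 and 0.15 and did not pass.

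The translocon, the channel for proteins that enter the reticulum, had small differences. Sec61a1, the pore subunit, was 1.40-fold lower (-0.49 ± 0.11, SE, adjusted p = 0.0152), at 10.78, 10.86 and 10.95 in KO livers and 11.18, 11.37 and 11.49 in WT livers, and 5 of its 6 probe sets were called lower. It missed the threshold without KO replicate 1 (-0.44, adjusted p = 0.0675) or KO replicate 2 (-0.49, adjusted p = 0.0575). Sec61b, a small subunit of the same channel, differed by -0.30 ± 0.09 and only just passed (adjusted p = 0.0499). Its adjusted p ran from 0.0209 to 0.14 over 15 alternatives, and the call was lost without KO replicate 1, 2 or 3 (0.123, 0.109 and 0.14), without WT replicate 2 or 3 (0.107 and 0.096) and under 4 further alternatives. Ssr1, a subunit of the translocon-associated complex, differed by -0.23 ± 0.11 (adjusted p = 0.162), passed as lower on averaging its 4 probe sets (-0.41, adjusted p = 0.0305) and as higher on the control scale (0.29, adjusted p = 0.0329). On that scale Sec61a1 and Sec61b differed by 0.026 and 0.21.

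Degradation genes went both ways, with 4 of 8 lower and 1 higher, and the derlin family held both directions. Derl1, a derlin of the channel that returns misfolded proteins to the cytosol, stood at 11.25, 11.26 and 11.02 in KO livers, against 10.32, 10.27 and 10.28 in WT livers. The groups lay far apart, and the gene was 1.85-fold higher (0.88 ± 0.10, SE, adjusted p = 0.000705), with all 4 probe sets called higher by 0.75 to 1.06. Its relative Derl2 stood at 10.58, 10.36 and 10.56 in KO livers, against 11.12, 10.87 and 11.18 in WT livers (-0.56 ± 0.12, adjusted p = 0.0111). Derl3, the third derlin, stood at 6.04, 6.24 and 6.19 in KO livers, against 6.78, 6.78 and 7.09 in WT livers (-0.72 ± 0.12, adjusted p = 0.00389). The groups did not overlap in any derlin, while the sign of Derl1 was opposite to that of the other members of its family. Derl2 just missed the threshold without KO replicate 2 (-0.49, adjusted p = 0.0507), and on the control scale Derl2 and Derl3 differed by -0.047 and -0.21 and did not pass (adjusted p = 0.718 and 0.128).

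The ubiquitin ligase Syvn1 was 1.44-fold lower (-0.53 ± 0.13, SE, adjusted p = 0.0195), at 8.99, 8.82 and 8.97 in KO livers and 9.21, 9.56 and 9.60 in WT livers. It lost its call without KO replicate 1, 2 or 3 (adjusted p = 0.0542, 0.0806 and 0.0505) or WT replicate 2 (0.0591), with differences from -0.47 to -0.56. Its partner Sel1l differed by -0.14 ± 0.13 in the brightest probe set (adjusted p = 0.452), while 3 of its 5 probe sets were called lower and their mean passed (-0.37, adjusted p = 0.018). Edem2, which takes part in trimming the mannose of misfolded glycoproteins, was 1.32-fold lower (-0.40 ± 0.11, adjusted p = 0.0322). Its call was lost without KO replicate 1, 2 or 3 (adjusted p = 0.103, 0.0938 and 0.0821) or WT replicate 2 (0.0509), with differences from -0.39 to -0.44, and on averaging both probe sets (-0.22, adjusted p = 0.127). Edem1, of the same family, differed by -0.30 ± 0.10 without overlap and did not pass (adjusted p = 0.0613). Herpud1, a stress-induced membrane protein of the ligase complex, had the widest spread of the degradation genes, at 11.44, 10.83 and 11.69 in KO livers and 11.34, 12.21 and 12.79 in WT livers. Its groups overlapped (-0.79 ± 0.36, adjusted p = 0.144), and it was called lower without WT replicate 1 (-1.18, adjusted p = 0.0246). On the control scale 0 of the 8 degradation genes were lower and 2 higher, Derl1 and Sel1l, against 2.25% and 71.3% of all genes.

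The roles can be set side by side within each array, where any shift of a whole array cancels. The mean log2 level of the 5 sensor and factor genes minus that of the 21 chaperone, lectin and isomerase genes was -0.39, -0.48 and -0.44 in KO livers and -1.40, -1.24 and -1.51 in WT livers. The value itself mixes different probe sets and only its change is read: it was 0.95 higher in KO livers, and the groups did not overlap. The median difference was 0.57 for the sensors and their factors, -0.59 for the chaperones and co-chaperones, -0.71 for the lectin chaperones, -0.80 for the isomerases, -0.30 for the translocon and -0.47 for the degradation genes. Counts by role on the control scale were 4 higher and 0 lower for the sensors and their factors. They were 4 higher and 5 lower for the chaperones and co-chaperones, and 1 higher and 4 lower for the isomerases. Among all genes 71.3% were higher and 2.25% lower on that scale.

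**Figure D3:**
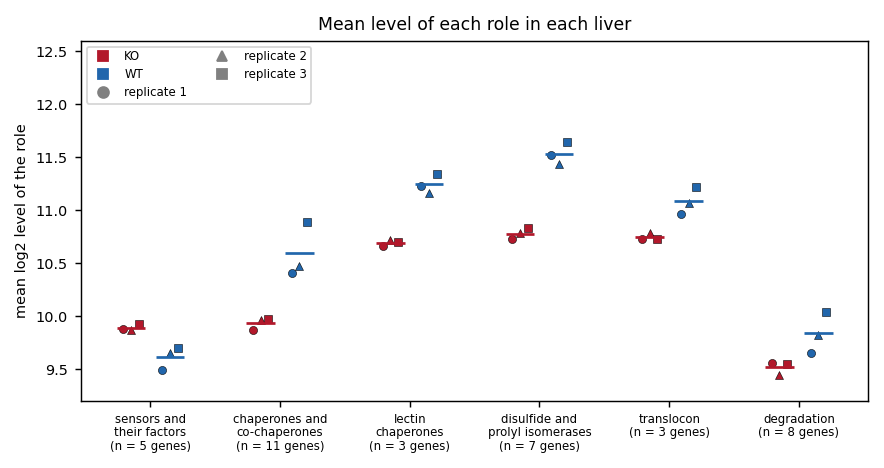
Mean log2 level of the genes of each role in each liver, with KO livers in red left of WT livers in blue, the marker shape giving the replicate number and the bar the mean over 3 livers. Levels of different roles come from different probe sets and are not comparable. The KO livers lie above the WT livers in the sensor role and below them in the other 5 roles.

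WT replicate 3 stood apart within its group. It was the highest WT liver in 29 of the 37 genes (78.4%), against 41.3% of all genes, and in all 3 translocon genes. Its mean over the 11 chaperones was 10.89, against 10.41 and 10.48 in WT replicates 1 and 2 and 9.87 to 9.98 in KO livers. Without it 19 of the 37 genes were lower and 4 higher, against 8.5% and 12.2% of all genes. The same array was the lowest WT liver in all 7 Kupffer cell markers, Vsig4 standing at 8.64 there, against 10.04 and 9.92 in WT replicates 1 and 2. Without it Clec4f and Vsig4 were called lower in KO livers (-0.59 and -0.54, adjusted p = 0.025 and 0.026). The part of these cells in the folding genes was not tested. The spread over the 37 genes was wider in WT than in KO livers, with a median SD of 0.086 in KO and 0.17 in WT, while over all genes it was 0.10 in KO and 0.15 in WT. Without KO replicate 1 or KO replicate 2 the count of lower genes was 13 in each case, in fits that called 5.41% and 4.88% of all genes lower and 8.82% and 8.23% higher. Without WT replicate 1 it was 23, with 9.23% of all genes lower and 13.3% higher. At an adjusted p under 0.01, 12 were lower and 2 higher, against 4.02% and 7.06%.

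Genes with an exact ERSE were compared with the other members as a description. Of the 9 with a match, 6 were lower and 0 higher (Hsp90b1, Creld2, Calr, Pdia6, Syvn1 and Derl3), with a median difference of -0.59. The 3 that did not pass were Hspa5, Canx and Dnajc3. Of the 22 with a window and no match, 11 were lower and 2 higher, Ern1 and Eif2ak3, with a median of -0.39. The other called rises, Atf6 and Derl1, had no window and were not searched. These 22 include Dnajb11 and Herpud1, which have an ERSE-II, and Txndc5, which has the XBP1-type element. Of 11 further genes with an exact ERSE that are not among the 37, 4 were lower and 1 higher, with a median of -0.33. Among all genes 9.75% were lower and 14.2% higher. Sdf2l1, the member with the largest fall, had no exact match in its window. The part of the element in these differences was not tested.

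Other genes of the secretory pathway were read from 5 further lists with 87 entries, of which 85 were measured. Together 25 were lower and 11 higher, with a median of -0.13. Among all genes 9.75% were lower and 14.2% higher, with a median of -0.055. With control centring 3 of the 85 were lower and 53 higher, with a median of 0.39. The same centring gave 2.25% lower and 71.3% higher over all genes, with a median of 0.46. Of 19 other folding and oxidation genes 9 were lower and 2 higher, and on the control scale 1 was lower and 7 higher. Ero1b, an oxidase that recharges disulfide isomerases, was 2.35-fold lower, at 8.88, 8.68 and 9.01 in KO livers and 10.05, 9.99 and 10.25 in WT livers (-1.23 ± 0.12, SE, adjusted p = 0.00036). The other Ero1 gene of the list, Ero1a, ran the opposite way and was called higher (0.55 ± 0.13, adjusted p = 0.0177). Its groups did not overlap, and it lost its call without KO replicate 1 or 2 and after quantile normalization. Hspa13, an HSP70 protein of microsomes, and Fkbp11, a prolyl isomerase, differed by -0.83 and -0.71 (adjusted p = 0.0292 and 0.0107). Hspa13 lost its call without KO replicate 1, 2 or 3 (adjusted p = 0.0723, 0.101 and 0.0776). For Fkbp11 1 of 3 probe sets was called, with differences from -0.71 to -0.0033, and averaging them ended the call (-0.33, adjusted p = 0.0781). Neither gene passed on the control scale (-0.32 and -0.19). Of 15 genes of N-glycan transfer and trimming 5 were lower and 2 higher, and on the control scale 0 were lower and 9 higher. The alternative oxidoreductase subunits of the oligosaccharyltransferase ran opposite ways, Tusc3 being higher (0.86 ± 0.14, adjusted p = 0.0035) and Magt1 lower (-0.65 ± 0.09, adjusted p = 0.00247), and the cargo receptor Lman1 was lower (-0.51 ± 0.09, adjusted p = 0.00462). Magt1 differed on the control scale by -0.14 and Lman1 by 0.0011, and neither passed.

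Of 18 measured genes of translocation and signal peptide removal 7 were lower and 1 higher, and on the control scale 2 were lower and 11 higher. The shares of all genes on that scale were 2.25% lower and 71.3% higher. Tram1, a membrane protein beside the channel, was 2.42-fold lower, at 9.94, 9.96 and 10.04 in KO livers and 11.19, 11.30 and 11.27 in WT livers (-1.27 ± 0.09, SE, adjusted p = 6.41e-05). The signal peptidase subunits Spcs3 and Sec11c were lower as well (-0.94 and -0.89, adjusted p = 0.000247 and 0.00612), and on the control scale the fall of Sec11c did not pass (-0.38, adjusted p = 0.0851). For Sec11c 1 of 2 probe sets was called. Other subunits differed in direction: Spcs2 was lower (-0.56, adjusted p = 0.0147) and Spcs1 higher (0.37, adjusted p = 0.023). Sec11a was not called (-0.025, adjusted p = 0.848), and Spcs1 lost its call in 5 of 15 alternatives. Of 21 measured other degradation genes 3 were lower and 3 higher, with a median of 0.094, and on the control scale 0 were lower and 17 higher. Trim13, a ubiquitin ligase of the reticulum membrane, was 2.01-fold higher (1.01 ± 0.12, adjusted p = 0.000831), and the ligase Rnf5 and the selenoprotein Selenok were lower (-0.55 and -0.49), values that were -0.039 and 0.025 on the control scale. Of 12 other sensor and signal genes 3 were higher and 1 lower, and on the control scale 9 were higher and 0 lower. Mbtps2, the protease that makes the second cut of ATF6, was 2.0-fold higher, at 8.17, 8.34 and 8.27 in KO livers and 7.37, 7.30 and 7.10 in WT livers (1.0 ± 0.10, adjusted p = 0.000532). Nfya, a subunit of NF-Y, which binds the CCAAT block, was higher (0.58 ± 0.12, adjusted p = 0.0112), a call that averaging its probe sets ended (0.29, adjusted p = 0.0547). Serp1, which protects proteins at the translocon, was lower (-0.38 ± 0.09, adjusted p = 0.0175) and lost its call without KO replicate 1, 2 or 3 (adjusted p = 0.0607, 0.0569 and 0.0617), and on the control scale it differed by 0.13 and did not pass.

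Of 14 outputs of PERK and ATF4, genes that respond to eIF2alpha kinases, 8 were higher and 0 lower, with a median of 0.85. With control centring 13 were higher and 0 lower. The shares of all genes were 14.2% higher and 9.75% lower as deposited, and 71.3% and 2.25% with control centring. Nupr1, a stress-induced nuclear protein, stood at 11.60, 12.20 and 11.22 in KO livers, against 4.69, 5.10 and 4.92 in WT livers (6.77 ± 0.23, SE, adjusted p = 4.08e-06), the WT values lying about the background of 4.90. Trib3, a pseudokinase, and Atf3, a transcription factor, were higher by 4.67 ± 0.34 and 3.33 ± 0.14 (adjusted p = 8.49e-05 and 1.04e-05). These outputs also answer to kinases of eIF2alpha other than PERK, which the levels do not tell apart.

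**Figure D4:**
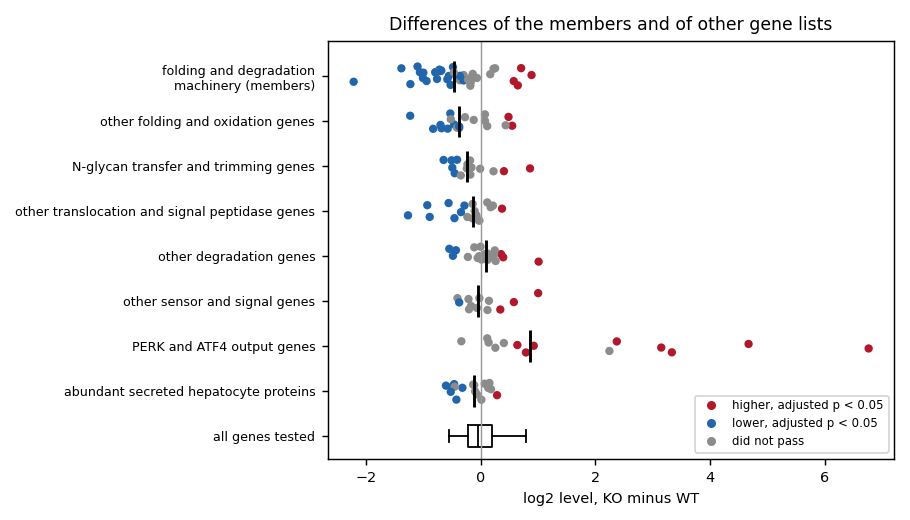
Difference of each gene between KO and WT livers on the log2 scale (1 point per gene, black bar the median of the list) for the 37 genes, for 5 other lists of the secretory pathway, for the outputs of PERK and ATF4 and for secreted hepatocyte proteins, with a box for all 18193 genes (quartiles, whiskers from the 5th to the 95th percentile). Medians lie at -0.47 for the 37 genes, -0.38 for other folding genes and 0.85 for the outputs of PERK and ATF4.

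The cargo and the cell types were read beside these results. For their counts, the shares of all genes are 9.75% lower and 14.2% higher, and 2.25% and 71.3% on the control scale. Of 17 measured abundant secreted proteins of hepatocytes 6 were lower and 1 higher, with a median of -0.12. With control centring 0 were lower and 10 higher, with a median of 0.40. Itih4, Plg and Fgb, which encode an inter-alpha-trypsin inhibitor chain, plasminogen and a fibrinogen chain, were lower by 0.61, 0.53 and 0.49 on the log2 scale (-0.61, -0.53 and -0.49, adjusted p = 0.00297, 0.00376 and 0.00533), and differed by -0.097, -0.013 and 0.022 on the control scale, where none passed. Hepatocyte markers were bright in all livers, with 1 of 7 called lower, Asgr1 (-0.070 on the control scale, not passed), and a log2 summed level of 16.62 to 16.67 in KO and 16.59 to 16.64 in WT livers. In a bulk sample, fewer cells of a type and less RNA per cell cannot be told apart. Plasma cells are rich in this machinery. Of 6 measured plasma and B cell markers 2 were higher, Jchain (1.69 ± 0.38, adjusted p = 0.0153) and Pou2af1, and 0 lower, with a log2 summed level of 8.12 to 9.08 in KO and 7.59 to 7.88 in WT livers. Pou2af1, whose call was lost in 7 of 15 alternatives, and Prdm1 were below background on every array, and the part of these cells in the results was not tested. Of 7 Kupffer cell markers 0 passed (limma, 0 also at an unadjusted p under 0.05), with a summed level of 11.76 to 12.15 in KO and 11.37 to 12.54 in WT livers. Of 6 stellate cell markers 3 were lower, Reln, Dcn and Hand2 (summed level 11.50 to 11.64 in KO, 11.84 to 11.99 in WT). Of 6 sinusoidal endothelial markers 2 were lower, Clec4g and Kdr, and 1, Lyve1, higher (10.70 to 10.87 in KO, 10.98 to 11.26 in WT). Lyve1 was below background on all 3 WT arrays. Of the stellate markers 0 were lower and 2 higher on the control scale, and 0 of the endothelial markers were lower and 3 higher. Dcn, Clec4g and Kdr each lost their call in 10 of 15 alternatives, and Hand2 in 4. Of 5 cholangiocyte markers 1 was lower, Krt19, which differed by 0.0024 on the control scale and lost its call in 7 alternatives. Krt19 was below background on all 3 KO arrays and 1 WT array. Of 5 measured neutrophil and T cell markers 0 passed (limma, 0 also at an unadjusted p under 0.05). The part of the stellate and endothelial markers was not tested.

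**Figure D5:**
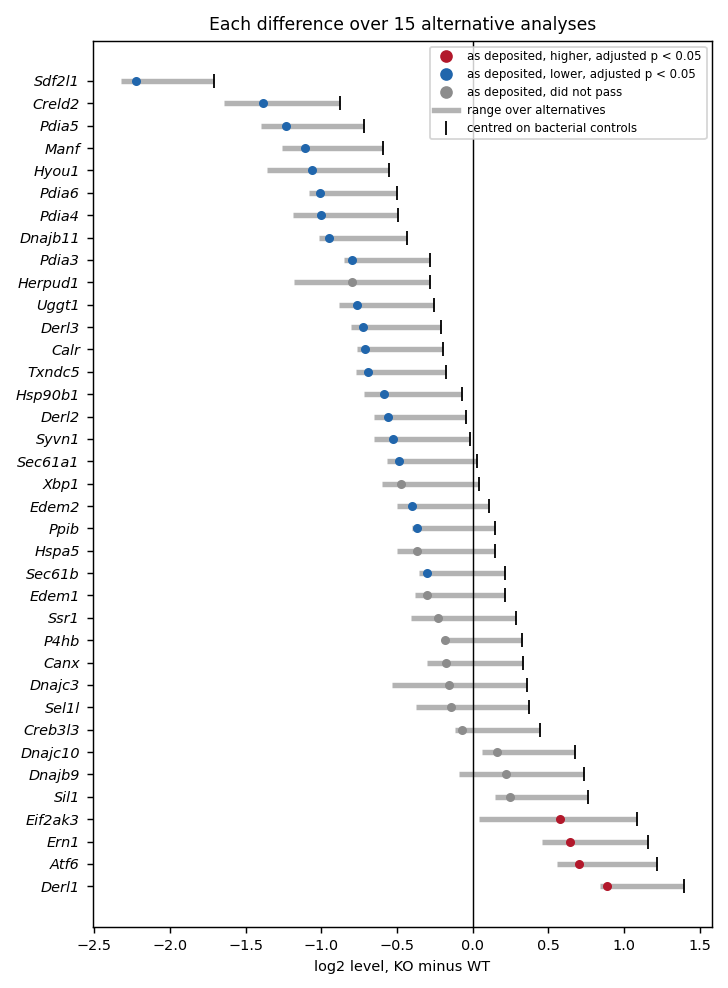
Difference of each of the 37 genes between KO and WT livers on the log2 scale as deposited (points) and its range over 15 alternative analyses (grey bars), with the value after centring on the bacterial controls as a black tick. The tick lies at the upper end of every bar, and Sdf2l1, Creld2, Pdia5, Manf, Hyou1, Pdia6, Pdia4, Dnajb11 and Pdia3 remain below 0 with their calls there.

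Over 15 alternatives at the same threshold, 11 of the 37 genes were called in the same direction in every one. The like share over all genes was not counted, so whether 11 is many is not shown. The higher ones were Atf6, Ern1 and Derl1. The lower ones were Hyou1, Sdf2l1, Dnajb11, Manf, Pdia3, Pdia4, Pdia5 and Pdia6, and the highest adjusted p among the 11 genes was 0.0423, that of Pdia3.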

How the data were processed

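Total RNA from 3 KO and 3 WT livers was labelled with biotin and hybridised to Affymetrix arrays. The authors deposited a log2 level for each probe set, computed with RMA, per the submitters' processing notes, which name no version. The scale was read from the values, 2.15 to 14.9 with array medians of 5.04 to 5.10. RMA draws the arrays towards 1 distribution, so levels are relative. Of 45101 probe sets, 34945 have 1 symbol in the platform annotation and 932 several, and 9160 were not named here. Genes, each by its brightest probe set, were fitted by limma 3.58.1 (R 4.3.3, lmFit and eBayes, two-sided) over all 18193 genes. The fit was run on simulated arrays with independent noise and known changes in some genes. Those arrays held neither the control shift nor the deviation of WT replicate 3, so the fit was not tested under them. Groups and replicate numbers come from the titles, and nothing says which same-numbered livers belong together. The labels call the livers biological replicates and name no batch. The 37 genes, the roles and the further lists were chosen with earlier results of these data known. All 37 genes, Pex5 and up to 3 called genes with the largest difference in each further list are named. Ero1a, Spcs1, Spcs2 and Sec11a are named as well, beside genes of the same family or complex. Alternatives were a replicate block, quantile normalization, centring on array medians or on bacterial controls, a filter on low levels, the mean of a gene's probe sets, all probe sets fitted, trend and robust eBayes, array weights, a threshold of 0.01 and leaving out each array. Promoter windows were matched by symbol and searched for exact letters. The number of arrays limits the precision.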

Additional observations from a re-analysis of the deposited data

How the results depend on the processing

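Of 592 values of the 37 genes under 16 alternatives, 507 kept their direction and stayed called or stayed uncalled. With the direction kept, 49 lost the call and 20 gained one. The other 16 turned sign, and calls lost or gained with a turned sign are counted only there. As deposited, 2589 genes were higher and 1774 lower, and of the 37 genes 4 and 20. Centring on 38 bacterial control probe sets gave 12970 higher and 409 lower genes, and 13 and 9 of the 37. A threshold of 0.01 gave 1285 higher and 732 lower, and 2 and 12. Leaving out 1 array gave 1497 to 2424 higher and 888 to 1679 lower genes, and 3 to 4 higher and 13 to 23 lower of the 37. The lowest counts came without KO replicates 1 (1604 and 984) and 2 (1497 and 888), and without KO replicate 3 there were 1956 and 1156. With quantile normalization 2075 genes were higher and 1932 lower, and with median centring 2875 and 1469. Control centring turned the sign of Creb3l3 (0.44), Xbp1 (0.041), Hspa5 (0.15), Dnajc3 (0.36), Canx (0.34), P4hb (0.33), Ppib (0.15), Sec61a1 (0.026), Sec61b (0.21), Ssr1 (0.29), Edem1 (0.21), Edem2 (0.11), Sel1l (0.37), Lman1 (0.0011), Selenok (0.025), Serp1 (0.13) and Fgb (0.022), since it adds 0.51 to each difference. Leaving out 1 array gave Creb3l3 from -0.12 to 0.012 (0.0019 without WT replicate 2, highest without KO replicate 2) and Dnajb9 from -0.093 (without WT replicate 1) to 0.41. A replicate block gave 2471 higher and 1618 lower genes, and 4 and 20 of the 37, with Xbp1 gained (adjusted p = 0.0337) and Sec61b lost (0.0853). Same-numbered arrays deviated together at r = 0.10, -0.02 and 0.11, so the numbers are not shown to pair the livers.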
